A study of Mus musculus with 24 samples.

Results

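The RNA of 9 genes of the JAK2-STAT5 signalling route was followed through eosinophil maturation in the mouse bone marrow: the kinase gene Jak2, the transcription factor genes Stat5a and Stat5b, the feedback inhibitor genes Cish, Socs1, Socs2 and Socs3, and the kinase genes Pim1 and Pim2. They were chosen by name, with earlier results of these data known, and are 9 of the 24982 gene symbols in each count file. The IL-33 libraries came from wild type C57BL6 mice that received intraperitoneal IL-33, at 400 ng a day for 7 days, which raises eosinophil numbers. The steady-state libraries came from wild type C57BL6 mice in the steady state, for which the labels describe no vehicle injection. The age of the mice was not given in the sources used here. In each condition, cells at stages I, II, III and IV of maturation were sorted from marrow that had been depleted of cells carrying CD45R, NK1.1, CD90.2 or Ly6G. The sort used stains for CD200R3, Pir-A/B, CD117, CD55, Siglec-F, F4/80 and CD29, and the labels do not tie each stage to a gate. Each of the 8 groups held 3 libraries and each library pooled 3 mice, 24 libraries in all, so the spread between libraries is the spread between pools.

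STAT5A and STAT5B are latent transcription factors in the cytoplasm. When IL-5, IL-3 or GM-CSF engages its receptor on an eosinophil or its precursor, receptor-bound JAK2 is activated and phosphorylates STAT5, which then enters the nucleus and binds DNA at sites of the form TTCNNNGAA. Cish and the Socs genes are among the genes STAT5 is known to induce; their proteins bind the receptor or the kinase and dampen the signal. Pim1 and Pim2 encode serine/threonine kinases known to favour the survival and growth of blood cells and are also induced through STAT5. RNA levels do not show STAT5 phosphorylation, which was not measured here.

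The STAT5-type motif near the start sites of Cish and Socs3 is shown to set these letters beside the RNA values, since Cish rose under IL-33 and Socs3 did not pass that test. Windows of 300 bases, 250 before and 50 from each RefSeq start site (GRCm38.p6), were held for 8 of the 9 genes, 11 windows in all. Socs2 was the gene with no window. The motif TTCNNNGAA reads the same on both strands, and it was found in the windows of 2 genes. Capitals mark the motif in the 30 bases printed for each.
Cish, chr9:107296654-107296683, plus strand: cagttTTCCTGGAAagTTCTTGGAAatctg
Socs3, chr11:117969501-117969530, minus strand: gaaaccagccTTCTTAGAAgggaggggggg
The Cish window (chr9:107296409-107296708) held 2 matches, the first beginning at the RefSeq start site itself. That site lies inside the span GENCODE gives for the Cish gene, which begins at chr9:107296026. The Socs3 window (chr11:117969317-117969616) held 1 match, whose first base lies 154 bases before the start site. No match was found in the windows of Jak2, Pim1, Pim2, Socs1, Stat5a or Stat5b. Among all 32851 windows, 8.3% held at least 1 match and 0.457% held at least 2. By gene, 9.55% of the 27025 genes with windows had a window with at least 1 match and 0.54% one with at least 2. A match is a run of letters and not a measured binding site.

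The libraries held 8335138 to 14909453 counts on genes. Reads on no annotated feature made up 9.19% to 16.6% of the IL-33 libraries and 17.8% to 30.5% of the steady-state libraries, so this share separated the conditions. The 4 steady-state libraries numbered 3 stood apart: the stress-response gene Jun was at 3329.9 to 5016 CPM (counts scaled to library size) in them and at 875 to 2142 CPM in the other 20. Atf3, another gene of that response, was at 164.5 to 1063 CPM in those 4 and at 1.33 to 52.0 CPM in the other 20. The other 4 genes of the stress list (Fos, Egr1, Hspa1a and Hspa1b) overlapped between those 4 libraries and the other 20.

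IL-33 libraries had more Socs2, Cish, Socs1 and Pim2 RNA than steady-state libraries on average over the 4 stages, and more Jak2 at stage IV. Stat5a and Stat5b did not pass the test at any stage. The sorted groups also differed in cell markers. At stage IV, 6 eosinophil markers summed to 18137 to 23562 CPM under IL-33 and 2892 to 3633 CPM in steady state. Il5ra, which is in that sum, went the other way at stage IV, with a lower mean under IL-33. There, 8 neutrophil markers summed to 5672 to 9410 and 8938 to 24349 CPM. Levels here are CPM scaled by trimmed-mean factors, and a gene is said to rise or fall where its adjusted p was under 0.05 by the quasi-likelihood test of edgeR, adjusted after Benjamini and Hochberg over the 12743 genes tested. All 9 genes passed the filter on low counts, also in the libraries of either condition alone. In the average over stages 5 of the 9 were higher under IL-33 and none lower, where 21.4% of all genes tested were called higher and 38.1% in either direction. The average took the 12 libraries of a condition as independent, while same-numbered libraries deviated together across several stages within a condition. The labels do not say whether they share pools. If they do, the SE and p of every average here may be too small, and no alternative run allowed for this. Stage by stage, 3 of 9 were higher at stage I, where 2.71% of all genes were called higher and 4.06% in either direction. At stage II 4 were higher (4.06% and 8.03% of all genes), at stage III 3 (18.5% and 33.4%) and at stage IV 5 (7.48% and 12.2%), and none was lower at any stage. The median log2 fold change over the 9 was 1.07, 1.01, 0.55 and 1.86 at stages I to IV, beside medians of 0.02, 0.06, 0 and -0.04 over all genes tested. In bulk RNA from sorted pools, a larger share of cells with a transcript and more of it per cell cannot be told apart. Without the 4 steady-state libraries numbered 3, the average count was 6 of 9, and the stage counts were 4, 5, 4 and 5. All genes called in either direction in that fit numbered 4674 for the average, against 4855 with all libraries. By stage they numbered 526, 1046, 4714 and 1538, against 518, 1023, 4256 and 1550 with all libraries.

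**Figure D1:**
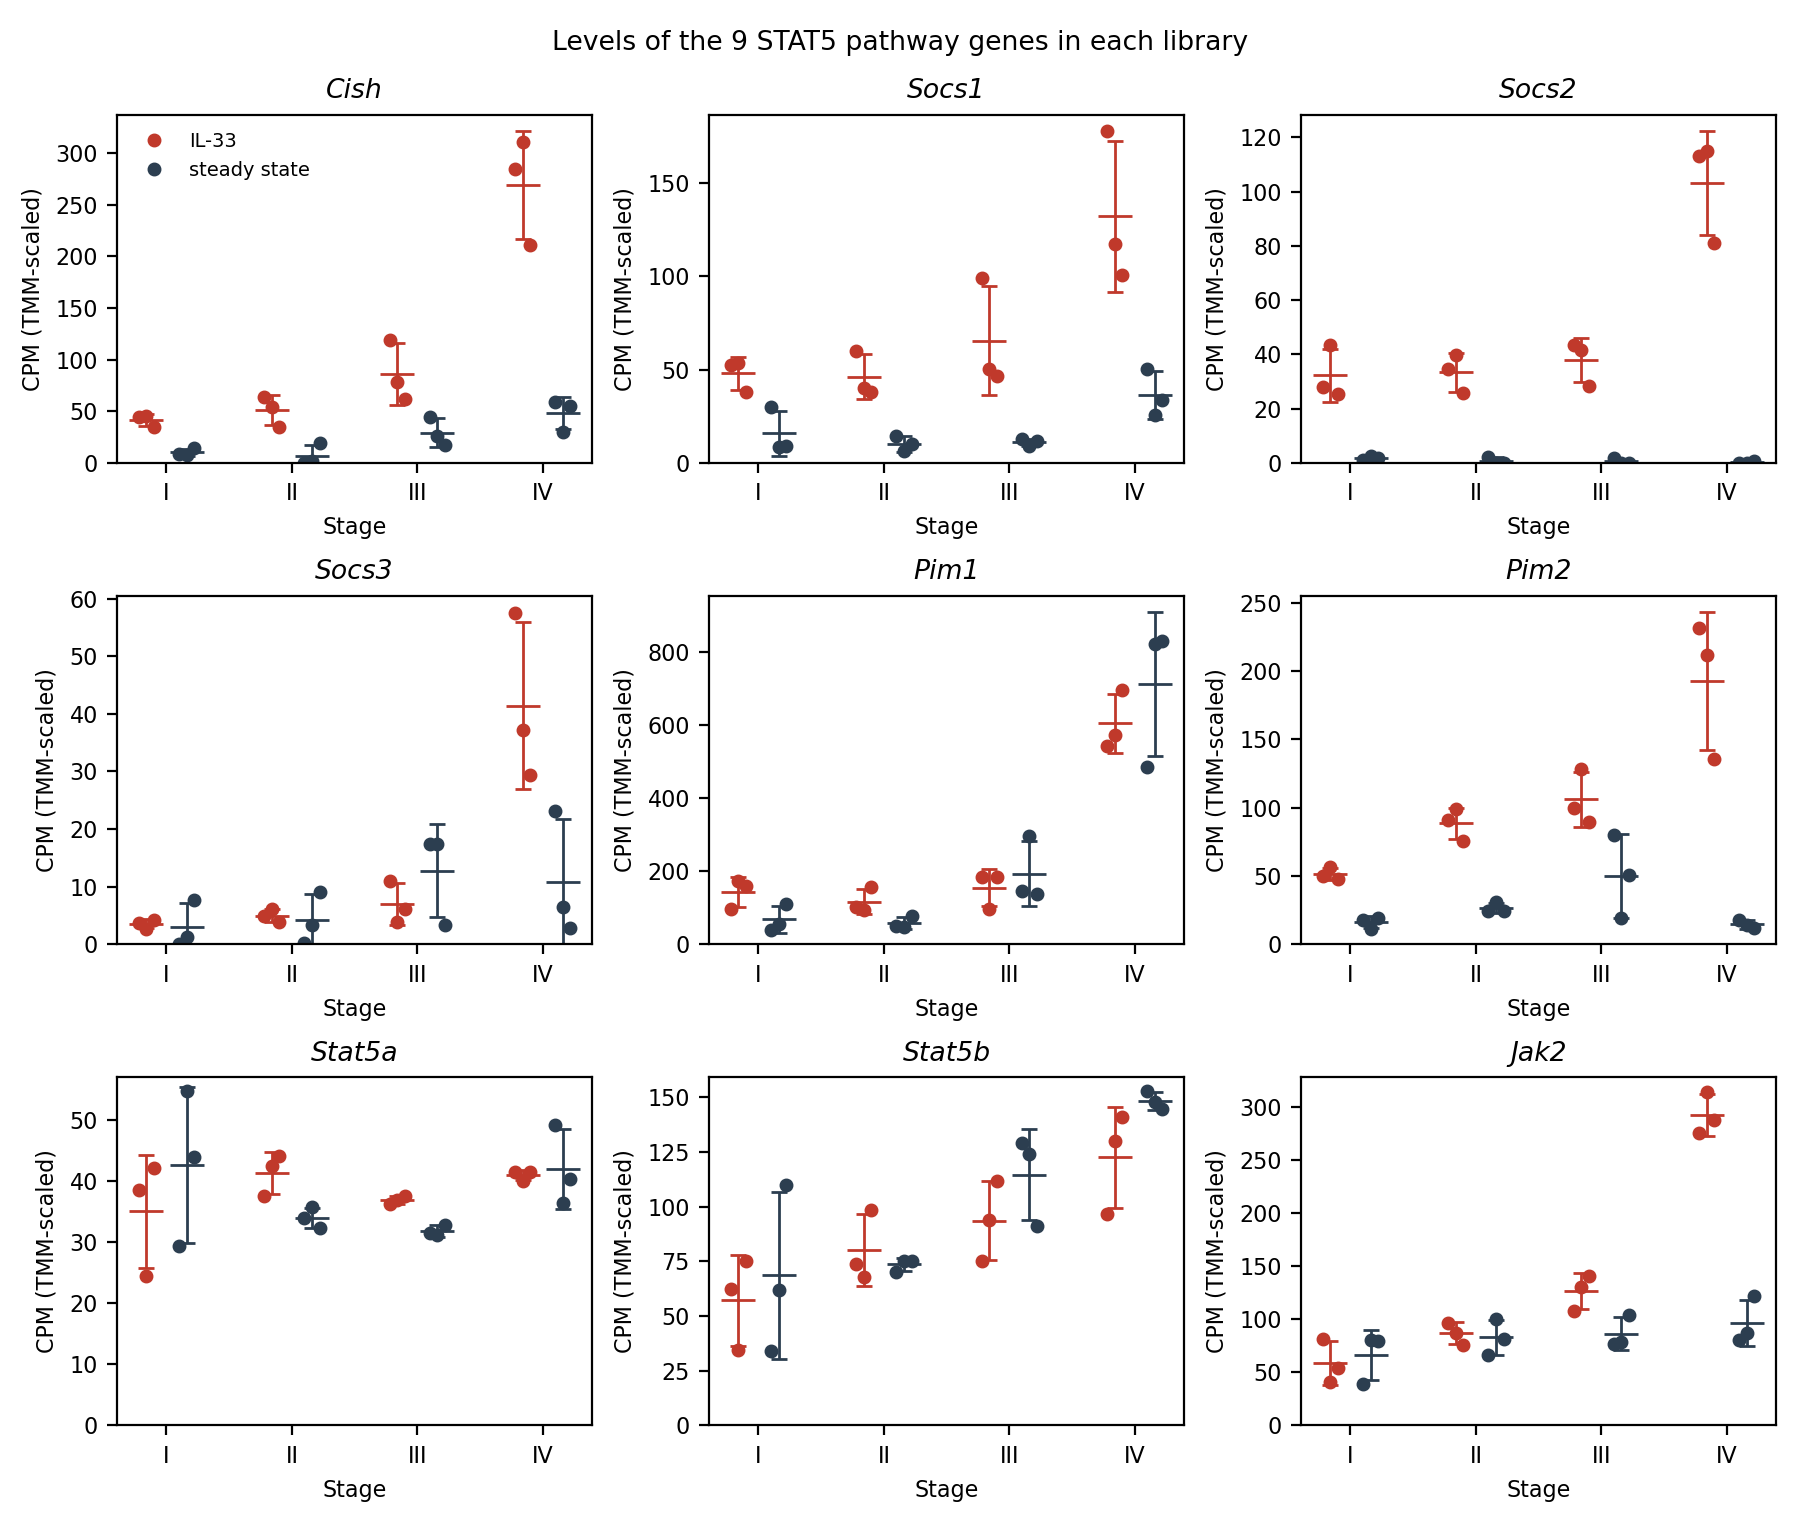
Levels of the 9 genes in each library, as scaled CPM on a linear axis starting at 0, by stage, with IL-33 libraries in red and steady-state libraries in dark blue. Points are libraries, bars the mean ± SD of 3. Socs2 was at 25.5 to 115 CPM in the 12 IL-33 libraries and at 0 to 2.47 CPM in the 12 steady-state libraries.

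Divided by the joint length of all annotated exons of a gene, Pim1 had the highest level of the 9 in every group. Its level was 179.6 CPM per kilobase in IL-33 stage IV and 212 in steady-state stage IV. The order below it differed between the conditions at stage IV. In IL-33 libraries Pim2 (69.0 CPM per kilobase), Jak2 (58.1), Socs1 (45.5) and Cish (41.9) came next, and Stat5a (5.74) was lowest. In steady-state libraries Stat5b (26.8 CPM per kilobase), Jak2 (19.1), Socs1 (12.5) and Cish (7.48) came next, Pim2 was at 5.17, and Socs2 (0.0302) was lowest. These orders are descriptions of group means and were not tested. They depend on the length used. All annotated exons were counted, 6419 bases for Cish and 9531 for Socs2, which can be longer than the RNA present. The levels per kilobase of such genes may be understated.

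Jak2 encodes the tyrosine kinase that sits on the shared beta chain of the IL-5, IL-3 and GM-CSF receptors (the gene lies at chr19:29251828-29313080, plus strand, mm10). At stage IV it was at 275, 314 and 288 CPM in IL-33 libraries and at 80.6, 86.8 and 121 CPM in steady-state libraries. The 2 sets did not overlap: the lowest IL-33 library was above the highest steady-state library. The rise was 3.03-fold, a log2 difference of 1.60 ± 0.28 (SE), with an adjusted p of 0.000388. At stages I and II the sets overlapped: 81.5, 40.9 and 54.3 against 39.3, 80.6 and 79.4 CPM at stage I, and 96.8, 87.3 and 75.9 against 66.7, 99.9 and 81.7 CPM at stage II. At stage III the IL-33 libraries (108, 130.1 and 141 CPM) all lay above the steady-state ones (76.3, 78.6 and 104 CPM), but the difference of 0.55 ± 0.27 did not pass (adjusted p = 0.122). Over the stages the average difference was 0.51 ± 0.14 (adjusted p = 0.00489). By stage the differences were -0.17 ± 0.27, 0.07 ± 0.27, 0.55 ± 0.27 and 1.60 ± 0.28, and the joint test of whether the IL-33 effect on Jak2 differs among the stages passed (adjusted p = 0.00806; 17.8% of genes passed it).

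Stat5a (chr11:100859351-100885169, plus strand) and Stat5b (chr11:100780731-100850724, minus strand) are neighbouring paralogs that encode nearly identical STAT5 proteins. Stat5a held between 24.5 and 54.8 CPM in all 24 libraries. Its group means were 35.0, 41.3, 36.9 and 41.0 CPM at IL-33 stages I to IV and 42.7, 34.0, 31.8 and 42.0 CPM at the same steady-state stages. No comparison of Stat5a passed, and the average difference with IL-33 was 0.04 ± 0.12 on the log2 scale (adjusted p = 0.828), the smallest of the 9. Stat5b at stage IV was at 96.5, 130.0 and 141 CPM in IL-33 libraries and 153, 148 and 145 CPM in steady-state libraries. Every IL-33 value lay below every steady-state value there, but the difference of -0.28 ± 0.32 did not pass (adjusted p = 0.623), nor did the average of -0.18 ± 0.16 (adjusted p = 0.405). Reads that the 2 paralogs share could be assigned to either or dropped, and Stat5a overlaps Stat3 on the opposite strand, so with an unstranded kit a part of its reads cannot be told from those of Stat3.

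Cish (chr9:107296026-107302784, plus strand) encodes CIS, the classical STAT5-induced inhibitor, which competes for STAT5 docking sites on the receptor. At stage IV it was at 285, 311 and 211 CPM in IL-33 libraries and 58.7, 30.0 and 55.4 CPM in steady-state libraries. At stage II it was at 63.3, 54.5 and 34.9 CPM in IL-33 libraries and 0, 1.63 and 19.01 CPM in steady-state libraries. At both stages the sets did not overlap, and within steady-state stage II the library numbered 3 held nearly all of the Cish counts (0, 16 and 216 counts). Cish rose by 2.86 ± 0.76 at stage II (adjusted p = 0.0219) and by 2.49 ± 0.74 at stage IV (adjusted p = 0.0288). The stage IV call ended without any 1 of the 3 steady-state stage IV libraries or without IL-33 stage IV library 1 or 2 (adjusted p up to 0.122 without steady-state library 2). The stage II call ended without steady-state library 2 or IL-33 library 1 or 2 (up to 0.0769) and when the 6 stage II libraries were fitted alone (0.224). Without the 4 libraries numbered 3 the stage II difference was 5.80 (adjusted p = 2.48e-05).
At stages I and III the IL-33 libraries also all lay above, at 44.2, 45.3 and 34.5 against 8.73, 8.01 and 14.3 CPM and at 119, 78.0 and 61.4 against 44.5, 26.2 and 17.1 CPM, with differences of 1.99 ± 0.74 and 1.56 ± 0.72 that did not pass (adjusted p = 0.119 and 0.0986). Both passed without the libraries numbered 3, at 2.26 (adjusted p = 0.0143) and 1.28 (adjusted p = 0.0359). The average over stages was 2.23 ± 0.37, or 4.68-fold, with an adjusted p of 5.84e-05, and it passed under every alternative run. Antisense transcripts that overlap Cish (Gm17040 and Gm17041) have no entry in the count files, so their reads could be counted as Cish.

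Socs1 (chr16:10782240-10785536, minus strand) encodes an inhibitor that blocks JAK catalytic activity directly. It was at 99.1, 50.3 and 46.8 CPM in IL-33 stage III and at 12.5, 8.80 and 11.6 CPM in steady-state stage III, a 5.97-fold rise (2.58 ± 0.45, adjusted p = 0.000146). At stage IV it was at 178, 118 and 101 CPM under IL-33 and 50.2, 25.5 and 33.5 CPM in steady state. The lowest IL-33 library was above the highest steady-state library at each of the 4 stages. The differences were 1.61 ± 0.44, 2.18 ± 0.45, 2.58 ± 0.45 and 1.86 ± 0.44 at stages I to IV, with adjusted p of 0.0394, 0.00385, 0.000146 and 0.00637. The calls at stages II, III and IV held under all 31 alternatives, while the stage I call was lost under 9, among them the fit without the libraries numbered 3 (1.28, adjusted p = 0.144) and the fit without steady-state stage I library 2 (adjusted p = 0.165) or 3 (0.171). At stage I Socs1 was at 52.7, 53.7 and 37.8 CPM under IL-33 and 29.9, 8.61 and 8.91 CPM in steady state, where library 1 stood above the other pair, and without that library the difference was 2.46. At stage II it was at 60.03, 40.2 and 38.2 CPM under IL-33 and 14.4, 6.10 and 10.0 CPM in steady state. The average over stages was 2.06 ± 0.22, or 4.16-fold (adjusted p = 2.43e-07).

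Socs2 (chr10:95385362-95417180, minus strand) encodes an inhibitor known for its part in limiting growth hormone signalling and is a further STAT5-induced gene. Its IL-33 libraries held 28.0, 43.4 and 25.5 CPM at stage I and 113, 115 and 81.0 CPM at stage IV, and the steady-state libraries held 0.992, 2.47 and 1.65 CPM at stage I and 0.0868, 0.0924 and 0.685 CPM at stage IV. At stages II and III the IL-33 libraries held 34.6, 39.7 and 25.7 CPM and 43.5, 41.7 and 28.4 CPM. Socs2 was thus near 0 in every steady-state library and plainly present in every IL-33 library. In raw counts the steady-state libraries held 10, 29 and 22 at stage I, 20, 0 and 1 at stage II, 13, 0 and 0 at stage III and 1, 1 and 5 at stage IV, against 278 to 1288 in the IL-33 libraries.
The fitted log2 differences were 4.23 ± 0.84, 5.49 ± 0.92, 6.20 ± 0.97 and 8.64 ± 1.09 at stages I to IV, with adjusted p of 0.00638, 0.00071, 4.43e-05 and 9.23e-06. Their sizes rest on these few steady-state counts and depend on the prior count of the fit, so no fold is given. All 4 calls held under every alternative, but the size moved with single libraries: without steady-state library 1, which held nearly all Socs2 counts of its group, it was 9.17 at stage II and 11.75 at stage III. The average of 6.14 ± 0.48 (adjusted p = 2.53e-09) placed Socs2 39th among the 12743 genes by the size of the rise, where Cish was 472nd, Pim2 533rd and Socs1 537th.

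Socs3 (chr11:117966079-117970047, minus strand) encodes an inhibitor best known for restraining gp130 and G-CSF receptor signalling. At stage IV it was at 57.5, 37.2 and 29.5 CPM in IL-33 libraries and 23.2, 6.37 and 2.88 CPM in steady-state libraries. The sets did not overlap, but the steady-state values spread over a wide range and the difference of 1.93 ± 1.03 did not pass (adjusted p = 0.238). At stages I to III the groups overlapped, with IL-33 means of 3.52 ± 0.763, 4.95 ± 1.10 and 7.01 ± 3.66 CPM and steady-state means of 3.00 ± 4.13, 4.15 ± 4.49 and 12.7 ± 8.10 CPM (SD). The average difference was 0.38 ± 0.51 (adjusted p = 0.598).

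Pim2 (chrX:7878262-7883432, plus strand) encodes a kinase that promotes survival and protein synthesis in blood cells. It was at 231, 211 and 136 CPM in IL-33 stage IV and at 17.9, 13.9 and 11.5 CPM in steady-state stage IV. The lowest IL-33 library there was more than the sum of the 3 steady-state libraries. The rise was 13.3-fold (3.73 ± 0.38, adjusted p = 7.15e-07). At stage II it was at 90.6, 98.7 and 75.8 CPM under IL-33 and 23.9, 30.8 and 24.6 CPM in steady state, a rise of 1.74 ± 0.35 (adjusted p = 0.00376). At stage I it was at 49.9, 56.4 and 47.8 CPM under IL-33 and 17.9, 11.0 and 19.4 CPM in steady state and rose by 1.67 ± 0.36 (adjusted p = 0.0112), a call lost without steady-state library 2 (0.0731) or IL-33 library 2 (0.0534). At stage III it was at 99.7, 128 and 89.5 CPM against 80.0, 18.9 and 50.2 CPM and rose by 1.09 ± 0.35 (adjusted p = 0.0186). That call was lost without steady-state library 2 (0.0858) or IL-33 library 2 (0.0844), or with the 2 groups fitted alone (0.0843). Without steady-state library 1, whose value was close to the IL-33 ones, the difference was 1.62. At each stage every IL-33 library was above every steady-state library. The average rise was 2.06 ± 0.18 (adjusted p = 1.38e-08).

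Pim1 (chr17:29490753-29496112, plus strand) encodes a kinase closely related to PIM2, and it did not pass at any stage. At stage IV it was at 543, 573 and 696 CPM in IL-33 libraries and 485, 821 and 830.0 CPM in steady-state libraries, sets that overlapped. At stage II it was at 100.3, 92.1 and 157 CPM against 49.8, 46.1 and 77.0 CPM, with every IL-33 library above, but the difference of 1.01 ± 0.38 did not pass (adjusted p = 0.103). The stage I difference of 1.07 ± 0.38 did not pass either (adjusted p = 0.104), with sets that overlapped. Without the libraries numbered 3 both passed, at 1.57 for stage I (adjusted p = 0.0195) and 1.18 for stage II (adjusted p = 0.0495), and so did the average, at 0.52 (adjusted p = 0.0247) beside 0.38 ± 0.19 (adjusted p = 0.112) with all libraries. An antisense transcript, Gm26885, overlaps Pim1 and has no entry in the count files, so its reads could be counted as Pim1.

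**Figure D2:**
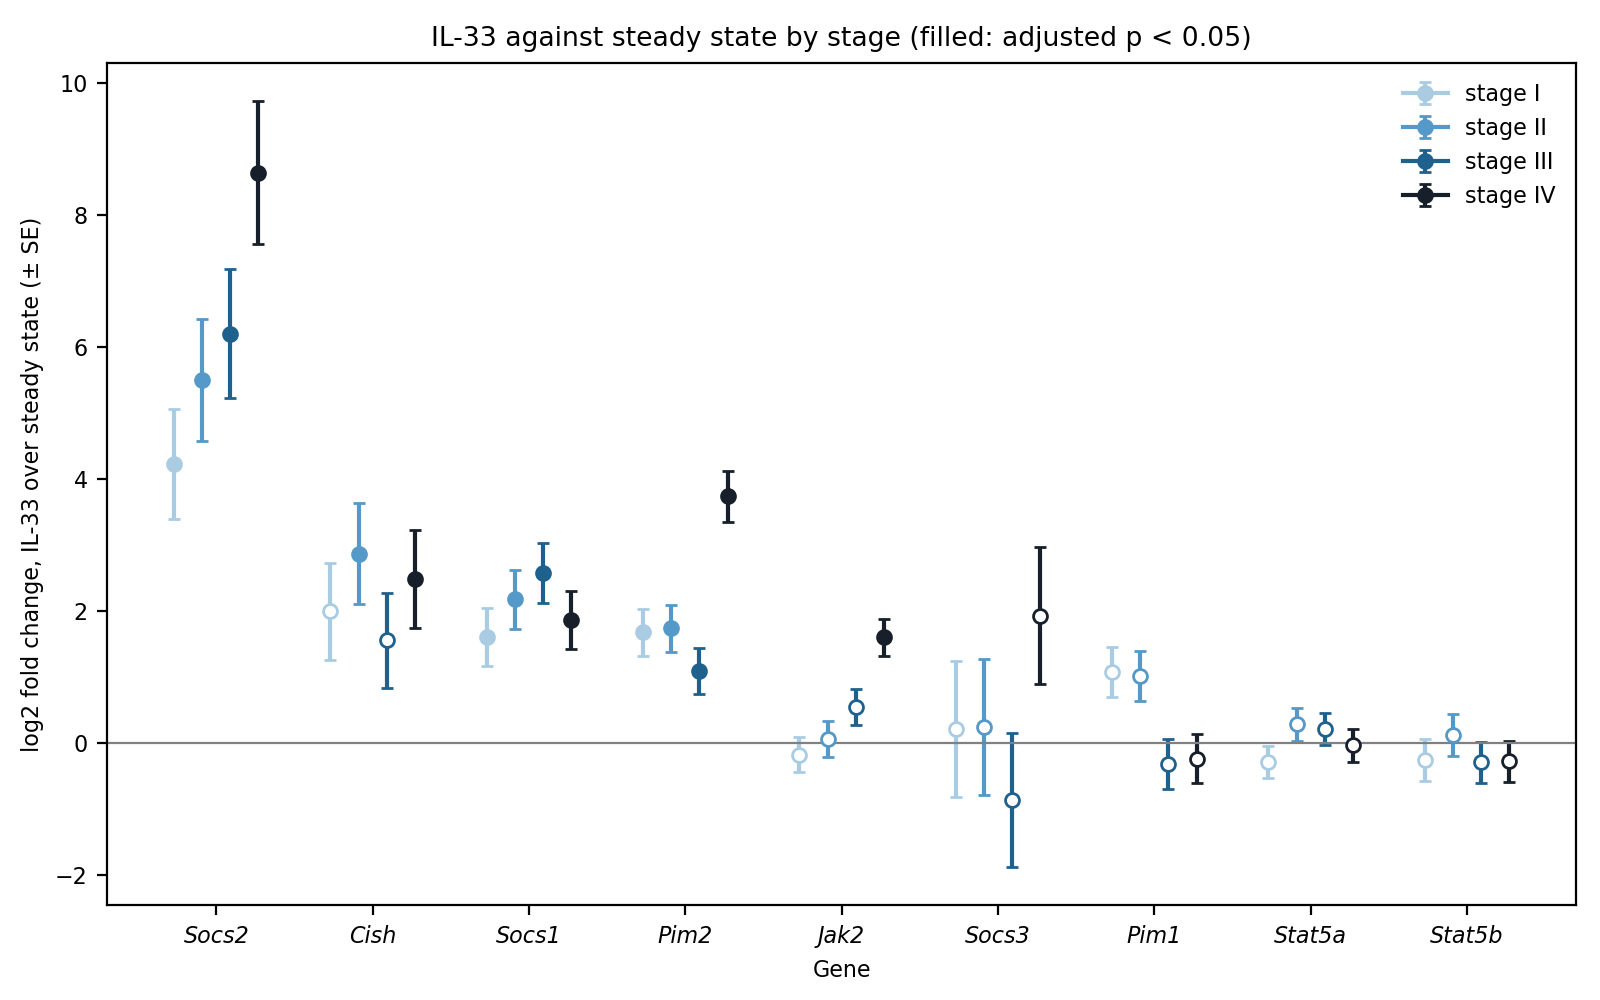
Fitted log2 fold change of IL-33 over steady state for each gene and stage, with bars of 1 SE; filled points had an adjusted p under 0.05. Socs2 had the largest differences, 4.23 at stage I and 8.64 at stage IV, and Jak2 passed at stage IV.

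Several of the 9 genes differed between stages I and IV in both conditions. The stages also differed in cell markers: the eosinophil marker sum was 28137 to 35486 CPM at steady-state stage I and 2892 to 3633 CPM at steady-state stage IV. The part of this in the results was not tested. Under IL-33, 7 of 9 were higher at stage IV than at stage I and none lower, where 21.2% of genes tested were called higher and 44.1% in either direction. In steady state, 4 of 9 were higher at stage IV than at stage I and 1 was lower, where 21.1% of genes were called higher, 22.7% lower and 43.8% in either direction. The steady-state count in either direction is near the share of all genes, so it is not taken as a trait of the 9. The median log2 difference of the 9 was 1.91 under IL-33 and 1.11 in steady state, beside -0.03 and -0.03 over all genes. The 2 comparisons share no libraries.

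Pim1 was higher at stage IV than at stage I in both conditions. It was at 543, 573 and 696 CPM in IL-33 stage IV and 97.1, 172 and 158 CPM in IL-33 stage I (2.08 ± 0.39, adjusted p = 0.000129). In steady state it was at 485, 821 and 830.0 CPM at stage IV and 37.3, 56.1 and 109.9 CPM at stage I, 10.5-fold higher (3.39 ± 0.41, adjusted p = 7.68e-07). The stage IV libraries lay above the stage I libraries in both conditions. Steady-state Pim1 rose at both late steps, by 1.74 ± 0.38 between stages II and III (adjusted p = 0.00131) and by 1.89 ± 0.38 between stages III and IV (adjusted p = 0.00297). Under IL-33 it rose at the last step, by 1.97 ± 0.39 (adjusted p = 0.000465), while the step to stage III was 0.41 ± 0.37 (adjusted p = 1). The difference between the conditions at the step to stage III, -1.33 ± 0.53, did not pass (adjusted p = 0.136); without the libraries numbered 3 it was -1.68 (adjusted p = 0.0285).

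Jak2 rose with maturation under IL-33, to 275, 314 and 288 CPM at stage IV against 81.5, 40.9 and 54.3 CPM at stage I, 4.96-fold (2.31 ± 0.28, adjusted p = 7.24e-07). The last step accounted for 1.21 ± 0.27 of it (adjusted p = 0.00175). In steady state Jak2 was at 80.6, 86.8 and 121 CPM at stage IV and 39.3, 80.6 and 79.4 CPM at stage I, sets that barely separated, with a difference of 0.53 ± 0.27 that did not pass (adjusted p = 0.116). The difference between the conditions at the last step was 1.05 ± 0.38 (adjusted p = 0.0583). It passed by DESeq2 (0.0482) and without any 1 of 4 single libraries, steady-state stage I library 1 or stage IV library 3 or IL-33 stage I library 1 or 2 (0.0333 to 0.0448). Stat5b was higher at stage IV than at stage I in both conditions, by 1.10 ± 0.32 under IL-33 (adjusted p = 0.00764) and 1.11 ± 0.32 in steady state (adjusted p = 0.00708). Its stage IV libraries lay above its stage I libraries in both. The steady-state difference was 1.67 without the libraries numbered 3. The steady-state call was lost when libraries were scaled by their totals (adjusted p = 0.0538), and the IL-33 call without IL-33 stage I library 2 (0.0547). Stat5a did not pass in either, at 0.23 ± 0.25 under IL-33 and -0.02 ± 0.25 in steady state (adjusted p = 0.478 and 0.95).

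Of the inhibitor genes, Cish was higher at stage IV than at stage I in both conditions, by 2.70 ± 0.74 under IL-33 (adjusted p = 0.00495) and by 2.21 ± 0.74 in steady state (adjusted p = 0.0191). The steady-state call was lost without stage I library 1 (0.0616) or 2 (0.0691). Socs1 was higher by 1.46 ± 0.43 under IL-33 (adjusted p = 0.00815) and by 1.21 ± 0.43 in steady state (adjusted p = 0.0271), where the sets overlapped and the call was lost without the libraries numbered 3 (1.01, adjusted p = 0.132), without stage I library 2 or 3 (0.132 and 0.125) or without stage IV library 1 (0.133), and was 2.05 without stage I library 1. Library totals (0.118) and a fit of the 2 groups alone (0.0986) also ended that steady-state call. Socs3 was at 57.5, 37.2 and 29.5 CPM in IL-33 stage IV and 3.65, 2.70 and 4.22 CPM in IL-33 stage I, a rise of 3.55 ± 1.11 (adjusted p = 0.0121), which missed the threshold without IL-33 stage I library 2 (0.0506). In steady state its libraries held 23.2, 6.37 and 2.88 CPM at stage IV and 0, 1.28 and 7.71 CPM at stage I. These overlapped, and the difference of 1.84 ± 1.05 did not pass (adjusted p = 0.162); without the libraries numbered 3 it was 4.50 (adjusted p = 0.00227).
Socs2 was the member lower at stage IV than at stage I in steady state, where it fell by 2.73 ± 1.07 (adjusted p = 0.0415), a difference between 1, 1 and 5 counts at stage IV and 10, 29 and 22 counts at stage I. That call was lost under 7 of 31 alternatives, with adjusted p up to 0.142 without stage IV library 1 or 2, and the value was -4.11 without the libraries numbered 3. Under IL-33 the stage IV libraries of Socs2 all lay above the stage I libraries, with a difference of 1.67 ± 0.73 that did not pass (adjusted p = 0.0657) but did without the libraries numbered 3 (1.69, adjusted p = 0.0157).

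**Figure D3:**
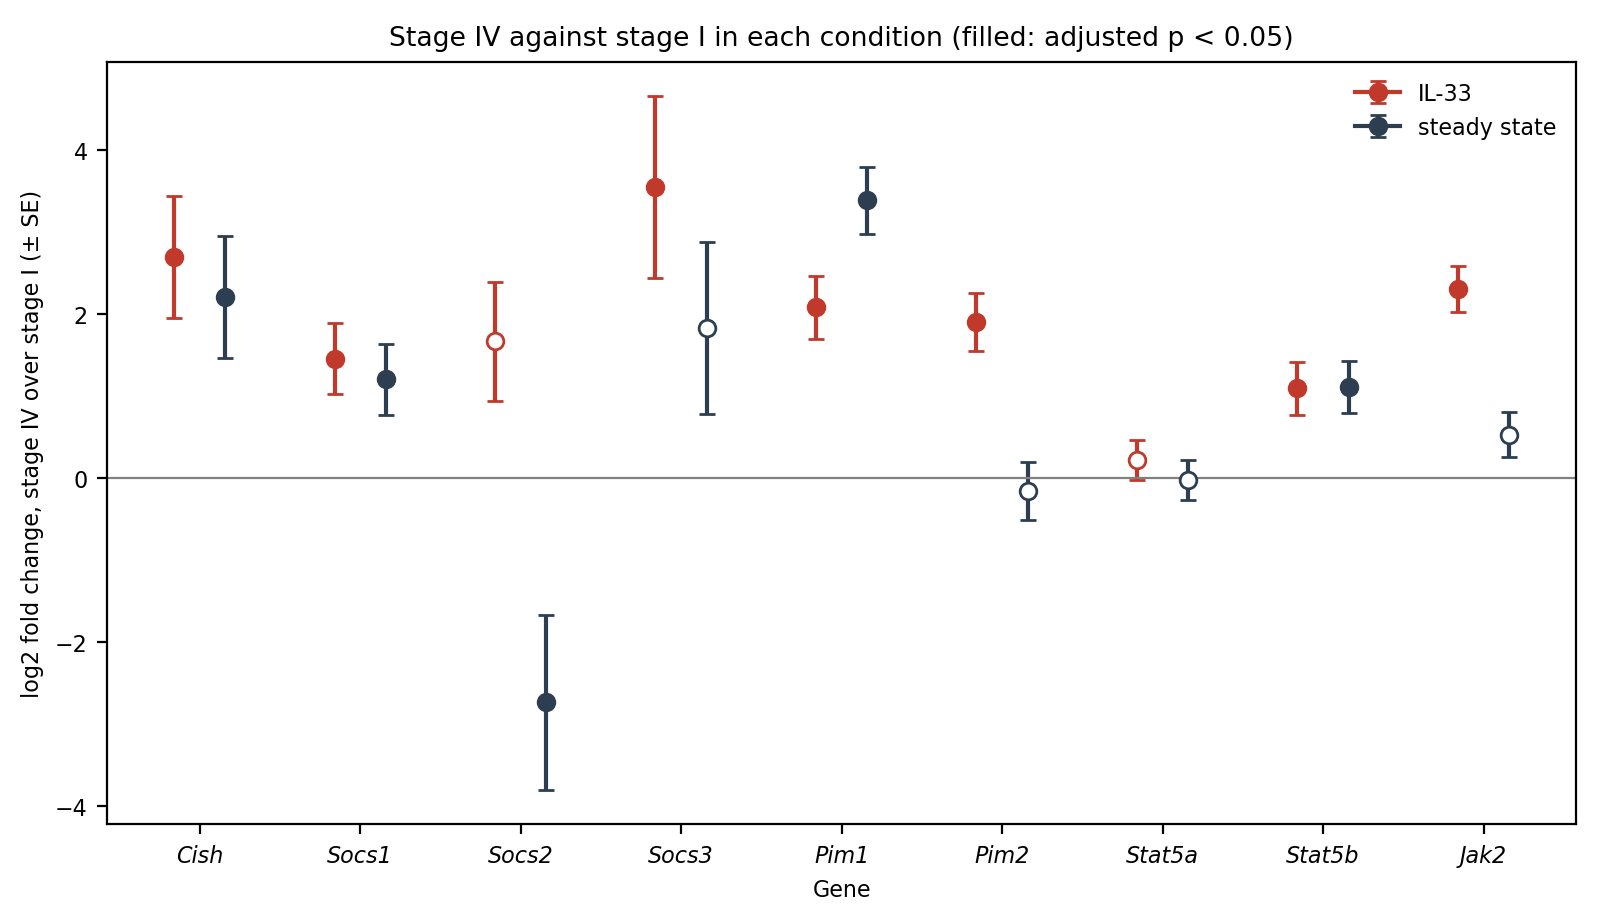
Fitted log2 fold change of stage IV over stage I for each gene, with IL-33 in red left of steady state in dark blue, bars of 1 SE, and filled points for an adjusted p under 0.05. Pim2 was higher under IL-33 (1.91) and did not pass in steady state (-0.15).

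Single steps showed fewer calls. Between stages I and II none of the 9 passed by edgeR in either condition, where 0.0942% of genes were called under IL-33 and 4.87% in steady state. At an unadjusted p under 0.05, 1 passed under IL-33 and 0 in steady state, and DESeq2 called 0 in both. Between stages II and III, Cish, Pim1 and Pim2 rose in steady state (3 of 9, where 17.2% of genes were called higher and 34.6% in either direction), while none of the 9 passed by edgeR under IL-33, where 0.0863% of genes did. At an unadjusted p under 0.05, 0 of 9 passed under IL-33 and DESeq2 called 0. The steady-state rises were 2.06 ± 0.75 for Cish (adjusted p = 0.0361) and 0.91 ± 0.35 for Pim2 (adjusted p = 0.0471). The Pim2 call was lost under 24 of 31 alternatives. The difference was 0.55 with library totals, 0.39 without steady-state stage III library 1 and 0.77 (adjusted p = 0.177) without the libraries numbered 3. The Cish call was lost without steady-state stage II library 1 (0.0643) or 2 (0.132) or stage III library 1 (0.125) or 2 (0.0548), and without stage II library 3 the sets would not overlap. The same call was lost by DESeq2 (0.0609), with library totals (0.0623) and with the 2 groups fitted alone (0.32). Without the libraries numbered 3 the Cish rise was 5.30. Cish then also fell between stages I and II in steady state, by 3.29 (adjusted p = 0.00771), where the difference with all libraries was -0.57 ± 0.74 (adjusted p = 0.742), and Socs3 rose between stages II and III by 3.22 (adjusted p = 0.0153), where it was 1.61 ± 1.04 with all libraries (adjusted p = 0.243).

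The last step, from stage III to stage IV, separated Pim2 between the conditions. In steady state Pim2 fell to 17.9, 13.9 and 11.5 CPM at stage IV, against 80.0, 18.9 and 50.2 CPM at stage III, a difference of -1.78 ± 0.36 (adjusted p = 0.00276; 0.1 when the 6 libraries were fitted alone). Under IL-33 it was at 231, 211 and 136 CPM at stage IV and 99.7, 128 and 89.5 CPM at stage III, a difference of 0.86 ± 0.34 that did not pass (adjusted p = 0.0626) although every stage IV library was above every stage III library. It passed by DESeq2 (0.0445), with the 6 libraries fitted alone (0.014) and without the 4 steady-state libraries numbered 3 (0.92, adjusted p = 0.0466). The difference between the 2 steps was 2.64 ± 0.50, with an adjusted p of 0.000642, and it passed under every alternative run. Pim2 was the member that passed this test, 1 of 9, where 18.7% of genes passed it. The joint test over all stages passed for Pim2 (adjusted p = 0.00287) and Jak2, 2 of 9, where 17.8% of genes passed. Without the libraries numbered 3 it also passed for Cish (adjusted p = 0.00222), Pim1 (0.00844) and Socs2 (0.0219). In that fit 2860 of all genes passed it, against 2264 with all libraries.
No member passed the matching tests of the 2 earlier steps, where 0% of genes passed at the step to stage II and 6.61% at the step to stage III. At an unadjusted p under 0.05, 0 and 1 of 9 did, and DESeq2 called 0 at both. Without the libraries numbered 3, Pim1 passed at the step to stage III, and so did Cish, at -4.53 (adjusted p = 0.000831). Steady-state Socs1 also rose at the last step, to 50.2, 25.5 and 33.5 CPM at stage IV against 12.5, 8.80 and 11.6 CPM at stage III (1.73 ± 0.44, adjusted p = 0.0149), with Pim1 making 2 of 9 higher and Pim2 1 of 9 lower (3.55% of genes called higher, 5.67% lower and 9.23% in either direction). The Socs1 call missed the threshold without stage IV library 1 (0.0597) or stage III library 2 (0.0528), or with the 2 groups fitted alone (0.0553).
Under IL-33, Pim1 and Jak2 passed at the last step, 2 of 9, where 13.1% of genes were called higher and 29.1% in either direction. Cish (1.64 ± 0.71, adjusted p = 0.088), Socs1 (1.02 ± 0.42, 0.0761), Socs2 (1.44 ± 0.72, 0.14) and Socs3 (2.56 ± 1.06, 0.0724) did not pass, although in each the 3 stage IV libraries lay above the 3 stage III libraries, as they did for 27.2% of all genes tested. This count depended on the libraries in the fit: it was 7 of 9 when the 6 libraries compared were fitted alone, 6 without the steady-state libraries numbered 3, where Cish (adjusted p = 0.00239), Socs3 (0.00983), Socs2 (0.039) and Pim2 also passed, and 4 without steady-state library 1 of stage I or of stage II. The number of all genes called also rose, from 3710 to 4766 without the libraries numbered 3. The change in the count is therefore not taken as a trait of the 9.

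The ratio of the 2 Pim genes within a library, per kilobase of exon, does not depend on the library factor. At stage IV the median Pim1 to Pim2 ratio, with the lowest and highest library in brackets, was 2.25 (1.95 to 4.26) in IL-33 libraries and 48.9 (22.6 to 59.9) in steady-state libraries, sets that did not overlap. At stage III it was 1.54 (0.615 to 1.71) and 2.28 (1.499 to 13.05), which overlapped. These ratios are given as a description, with no test. The Stat5b to Stat5a ratio was 2.09 (1.81 to 2.30) at IL-33 stage I and 4.18 (3.00 to 4.38) at IL-33 stage IV, and 1.49 (1.45 to 3.22) and 4.63 (4.01 to 5.21) at the same steady-state stages. Per kilobase, Stat5b was the more abundant of the pair in every library of both conditions at every stage, with a lowest ratio of 1.45. The size of these ratios depends on the exon lengths used.

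**Figure D4:**
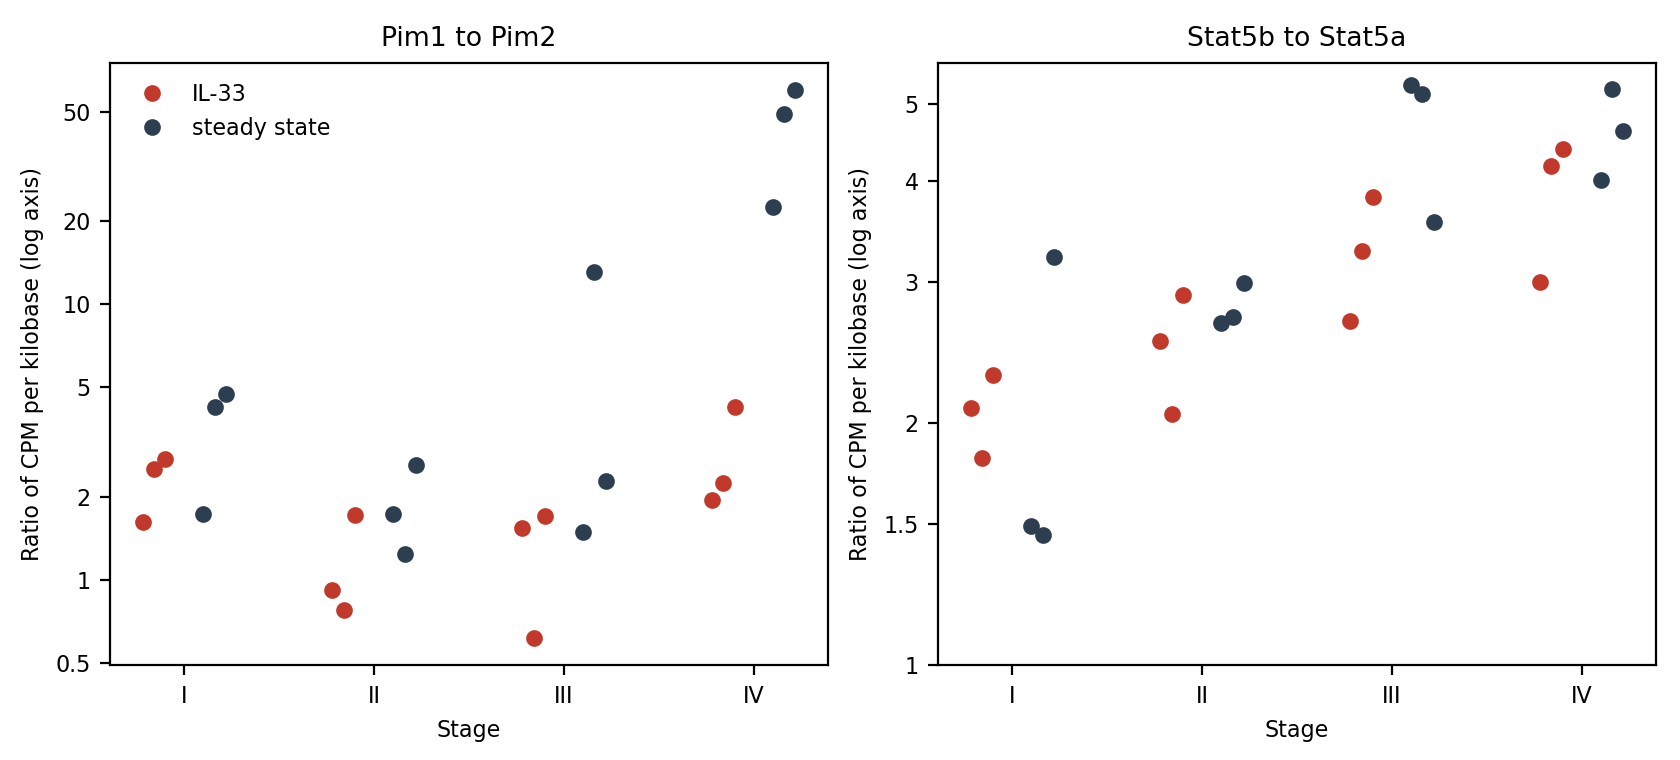
Ratio of levels per kilobase within each library, on a log axis, by stage, with IL-33 in red left of steady state in dark blue; each point is a library. The Pim1 to Pim2 ratio at stage IV was 1.95 to 4.26 under IL-33 and 22.6 to 59.9 in steady state.

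In order of group mean, IL-33 stage IV was highest for Socs1, Socs2, Socs3, Cish, Pim2 and Jak2, and for each its libraries did not overlap those of the next group down. That next group was IL-33 stage III for Socs1, Socs2, Cish, Pim2 and Jak2, and steady-state stage III for Socs3. For Socs2 the 4 IL-33 groups filled the top 4 places and the 4 steady-state groups the bottom 4, with a gap between IL-33 stage I and steady-state stage I. Among themselves, IL-33 stages I to III overlapped as neighbours in that order for Socs1 and Socs2. For Pim1 the highest groups were steady-state stage IV (712 ± 197 CPM) and IL-33 stage IV (604 ± 81.1 CPM), which overlapped each other and no other group. For Stat5b, steady-state stage IV (148 ± 4.16 CPM) was highest and did not overlap IL-33 stage IV (123 ± 23.2 CPM).

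The genes whose pattern over the 8 group means was most like each member were taken by Pearson's r on log2 CPM among 8336 genes that reached a mean of 20 CPM in some group. With 8 points that share 2 conditions and 4 stages, a high r is common, and the values are a description. Rgs5 and Ifitm1 were the pair nearest to Socs2 (r = 0.99 for each). Rgs5, a regulator of G protein signalling, had means of 8.93, 8.91, 20.4 and 22.3 CPM at IL-33 stages I to IV and of 0.977, 0.542, 0 and 0.116 CPM at the steady-state stages. Ifitm1, an interferon-inducible membrane protein gene, had 2174 CPM at IL-33 stage IV and 25.7 CPM at steady-state stage IV. Pim2 was most like Ptpn9, Chrm1 and Csnk1a1 (r = 0.98 to 0.99). Ptpn9, a tyrosine phosphatase gene, had 69.8 CPM at IL-33 stage IV and 17.6 CPM at steady-state stage IV. Csnk1a1 differed far less, with 302 CPM at IL-33 stage IV and 211 CPM at steady-state stage IV. A high r shows a like shape and not a like size of difference. For Cish the nearest were Nfic, Smurf1 and Nck2 (r = 0.98 for each), for Socs1 Tmem158, Epn1 and Emc9 (0.97 to 0.99) and for Socs3 Cdipt, Rnf8 and Derl1 (0.99 to 1.00). For Jak2 they were Crybg1, Cd226 and Rhoh (0.97 for each), for Pim1 Sap30l, Ctdsp2 and Crtc1 (0.99 for each), for Stat5b Cpd, Mast3 and Ip6k1 (0.99 for each) and for Stat5a Slc4a1ap, Ep400 and Ttc7 (0.94 to 0.95). Stat5a spanned 0.39 log2 units over the groups, so its r rests on small differences. Tmem158 was near the floor in steady state, with group means of 0 to 2.27 CPM. Among the members themselves, r was highest between Cish and Socs1 (0.88), Socs2 and Socs1 (0.85), Jak2 and Socs3 (0.85) and Pim2 and Socs2 (0.84). It was 0.24 between Pim1 and Pim2 and 0.22 between Stat5a and Stat5b.

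Other genes of the route were read from 5 lists. Among the other Janus kinases and STATs, 3 of 8 were lower under IL-33 on average and none higher, with a list median of -0.38 beside 0.05 over all genes. Among all genes tested, 16.7% were called lower in that average, 21.4% higher and 38.1% in either direction, and these shares stand beside the average counts of each list. Stat4, a factor activated by IL-12, was lower (-2.13 ± 0.20, adjusted p = 3.91e-08), as was the kinase Jak1 (-0.46 ± 0.12, adjusted p = 0.00339). Stat4 averaged 3.60 ± 0.272 CPM in IL-33 stage III and 32.9 ± 10.7 CPM in steady-state stage III (SD). Jak1 rose between stages I and IV in both conditions, by 1.60 ± 0.24 under IL-33 (adjusted p = 1e-05) and by 1.62 ± 0.24 in steady state (adjusted p = 1.09e-05).

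Of the other Socs and Pim genes, Pim3 was the 1 of 5 that passed on average, and it was lower under IL-33 (-0.84 ± 0.18, adjusted p = 0.000619), where 38.1% of all genes passed. At stage IV Pim3 was at 78.2 ± 13.4 CPM under IL-33 and 343 ± 194 CPM in steady state (-2.13 ± 0.36, adjusted p = 0.000332). In steady state Pim3 rose between stages III and IV (2.42 ± 0.37, adjusted p = 0.000143), the step at which Pim2 fell. The list median was -0.17.

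Among the receptor chains that feed STAT5, 9 of 12 were tested, and the counts of the other 3 were too low. On average 5 of 9 were higher under IL-33 and 2 lower, where 21.4% of all genes were higher and 16.7% lower, with a list median of 0.54. The shared beta chain gene Csf2rb rose (0.73 ± 0.13, adjusted p = 0.000193), as did the IL-3 receptor chain gene Il3ra (1.07 ± 0.20, adjusted p = 0.000219), while the G-CSF receptor gene Csf3r fell (-3.08 ± 0.49, adjusted p = 3.51e-05). Csf2rb and its near-identical copy Csf2rb2 may share reads and are uncertain as single genes. Between stages I and IV, Csf2rb2 rose by 3.25 ± 0.34 under IL-33 (adjusted p = 8.63e-08) and by 2.83 ± 0.33 in steady state (adjusted p = 5.96e-07), and Csf2ra, the GM-CSF receptor alpha chain gene, rose by 1.77 ± 0.22 under IL-33 (adjusted p = 1.09e-06). The IL-5 receptor alpha chain gene Il5ra, named here after its values were seen, was at 103 ± 37.4 CPM in IL-33 stage IV and 245 ± 28.5 CPM in steady-state stage IV, and was lower on average (-0.69 ± 0.16, adjusted p = 0.00146).

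Of the other negative regulators, 1 of 12 was higher and 4 lower under IL-33 on average (median -0.24), where 21.4% of all genes were higher and 16.7% lower. Together 5 passed, and 3 did without any 1 of IL-33 libraries 1 or 2 of stage II, 2 of stage I, or 2 or 3 of stage IV. The phosphatase genes Ptpn6 (-0.35 ± 0.09, adjusted p = 0.00419) and Ptprc (-0.58 ± 0.14, adjusted p = 0.0021) were among the lower ones. At stage III, Ptprc (-1.37 ± 0.28, adjusted p = 0.000614) and Ptpn6 (-0.92 ± 0.18, adjusted p = 0.000496) fell together with Ptpn1, 3 of 12, where 14.9% of all genes fell. All 3 rose between stages I and IV in both conditions, Ptpn1 by 2.43 ± 0.22 under IL-33 (adjusted p = 1.48e-08) and by 2.49 ± 0.22 in steady state (adjusted p = 1.16e-08).

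Of the other genes known as STAT5 targets, 11 of 12 were tested (Il2ra was not), and 5 were higher and 3 lower under IL-33 on average (median 0.20), where 21.4% of all genes were higher and 16.7% lower. The survival gene Bcl2l1, which encodes BCL-XL, rose (1.28 ± 0.20, adjusted p = 2.77e-05) and was at 84.1 ± 13.4 CPM in IL-33 stage IV and 22.6 ± 11.8 CPM in steady-state stage IV. Bcl2 was higher at stage IV (2.96 ± 0.47, adjusted p = 0.000175), and in steady state it fell between stages I and IV (-3.69 ± 0.48, adjusted p = 2.3e-06). The cyclin gene Ccnd2 was higher under IL-33 at stage III (4.43 ± 0.76, adjusted p = 0.000118) and fell with maturation under IL-33 (-4.02 ± 0.66, adjusted p = 3.18e-05). Mcl1, a further survival gene, and Osm, which encodes the cytokine oncostatin M, rose between stages I and IV in both conditions: Mcl1 by 2.29 ± 0.29 under IL-33 (adjusted p = 1.08e-06) and 2.24 ± 0.29 in steady state (adjusted p = 1.81e-06), and Osm by 2.59 ± 0.34 under IL-33 (adjusted p = 2e-06) and 2.56 ± 0.34 in steady state (adjusted p = 2.98e-06).

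The markers of the sorted cells changed between the same groups. The summed level of 6 eosinophil markers (Epx, Prg2, Prg3, Siglecf, Ccr3 and Il5ra) was 27858 to 37724 CPM at IL-33 stage I and 28137 to 35486 CPM at steady-state stage I, with no marker at 0 in any group. At stage III it was 25893 to 30846 CPM under IL-33 and 11595 to 19139 CPM in steady state, which did not overlap. At stage IV it was 18137 to 23562 CPM under IL-33 and 2892 to 3633 CPM in steady state, where Epx averaged 5799 CPM under IL-33 and 21.7 CPM in steady state. Il5ra, also in the sum, had a lower mean under IL-33 at stage IV. Such a sum follows its most abundant genes and is not a count of cells. The sum of 8 neutrophil markers was 1217 to 3643 CPM in IL-33 stage II and 14864 to 22910.3 CPM in steady-state stage II. At stage III it was 2623 to 3809.6 against 18510.1 to 22709 CPM, at stage IV 5672 to 9410.1 against 8938 to 24349 CPM and at stage I 1533 to 6033 against 2204 to 9269 CPM, and all 8 were detected in every group. The sum of 8 monocyte and macrophage markers, none at 0, was 104 to 145 against 440.1 to 598 CPM at stage III and 626 to 689 against 549.9 to 614 CPM at stage IV. The sum of 6 basophil and mast cell markers, none at 0, was 1382 to 2115 against 115 to 784 CPM at stage IV and 1955 to 2659.7 against 2259 to 3278 CPM at stage I. The sum of 4 megakaryocyte and platelet markers was 336 to 599 against 36.8 to 38.9 CPM at stage IV, and that of 5 T and NK cell markers, of which Cd3e was at 0 in both groups, 170.1 to 248 against 37.6 to 52.7 CPM. Erythroid markers, with Hbb-bs and Hbb-bt at 0 throughout, summed to at most 23.6 CPM in IL-33 libraries and 67.0 CPM in steady-state libraries, 3 of 4 B cell markers to at most 43.2 and 87.2 CPM, and dendritic cell markers to at most 6.42 and 39.0 CPM. Other sums that did not overlap between the conditions were those of monocyte and macrophage markers at stage II (44.5 to 87.7 against 319.5 to 712 CPM), megakaryocyte and platelet markers at stages II (515 to 657 against 196 to 368 CPM) and III (511 to 655 against 162 to 216 CPM), basophil and mast cell markers at stage III (2536 to 2766 against 709.9 to 1061 CPM) and T and NK cell markers at stage III (306 to 367 against at most 84.6 CPM). The low sums of erythroid and B cell markers at stages II and III, and of dendritic cell markers at stages II to IV, were also lower in every IL-33 library than in any steady-state library. At stage I the sums of all 9 marker lists overlapped, which with 3 libraries a group does not show that the cells were alike. Socs1, Socs2 and Pim2 rose at each of the 4 stages. The stage I calls of Socs1 and Pim2 were lost under 9 and 2 of 31 alternatives, and the stage III call of Pim2 under 3. The part of these cell differences in the results was not tested.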

How the data were processed

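RNA-seq libraries (SMART-Seq v4 and Nextera kits, per the labels' protocols) were made from sorted marrow cells. The deposited files give raw read counts per gene symbol; per the submitters' processing notes the authors used STAR 2.6.1a and the mm10 build, and name DESeq2. The counting tool, annotation and strand setting were not given in the sources used here. The 2 entries that name no gene (9.19% to 30.5% of counts on no feature, 1.73% to 2.60% ambiguous) were left out. Counts were scaled by TMM, filtered with filterByExpr, and all 24 libraries were fitted together with edgeR 4.0.16 (R 4.3.3), one coefficient a group, by the quasi-likelihood test, with Benjamini-Hochberg adjustment over 12743 genes. The script was tested on simulated data. Alternatives were other scaling, no filter, DESeq2 1.42.0, a replicate block, fits of the 2 groups alone, and each library left out. Replicate libraries differed beyond sampling noise (chi-square per degree of freedom 20.0 to 122.6). Exon lengths and positions came from GENCODE for the same build, matched by symbol for 98.03% of symbols, and promoter sequences from RefSeq. Levels are TMM-scaled CPM. Members, lists and tests were chosen with earlier results of these data known. Beyond the members, text names at most the 3 genes of a list with the smallest adjusted p in steady-state steps, IL-33 steps or IL-33 comparisons, and the 3 genes most like each member; a few such genes are not reported here. Same-numbered libraries deviated together (every r over 0.1) in steady state between stages I and II, III and IV, and I and IV, and under IL-33 between I and II and II and III. There the block changed no call of a member. The bar was missed between steady-state stages II and III (r of 0.058 to 0.163) and IL-33 stages III and IV (0.046 to 0.103). In both, all 6 libraries were still closest to their own number. With the block, the Pim2 call between steady-state stages II and III was lost (adjusted p = 0.0689). Between IL-33 stages III and IV, Socs1 (0.00419), Pim2 (0.036) and Cish (0.0498) then passed.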

Additional observations from a re-analysis of the deposited data

Results flagged for a closer look

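Pim2 changed differently between stages III and IV in the 2 conditions. Between stages III and IV it differed by 0.86 on the log2 scale under IL-33 and by -1.78 in steady state, and the difference of 2.64 between the steps passed its own test (adjusted p = 0.000642, edgeR's quasi-likelihood test). All 3 IL-33 stage IV libraries lay above, and all 3 steady-state stage IV libraries below, the stage III libraries of their condition. The joint test of whether the IL-33 effect differs among the 4 stages passed for Pim2 (adjusted p = 0.00287) and for Jak2 (adjusted p = 0.00806). Between stages I and IV, Socs2 differed by 1.67 under IL-33, which did not pass (adjusted p = 0.0657), and by -2.73 in steady state, a call lost under 7 of 31 alternatives, with every stage IV library above the stage I libraries under IL-33 and below them in steady state. The difference between these 2 values was not tested as such; the joint test over stages gave an adjusted p of 0.0835 for Socs2, and it passed with no filter on low counts (0.0478), without the 4 steady-state libraries numbered 3 (0.0219) and without any 1 of 4 single steady-state libraries, those of stage II and library 1 of stage III (0.0101 to 0.0466). The steady-state value rests on 1, 1 and 5 counts at stage IV and 10, 29 and 22 at stage I.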

How the results depend on the processing

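Of 153 results for the 9 genes, 43 passed the test, and 28 of these passed under every alternative run, 15 missed the threshold under at least 1, 23 that had not passed did under at least 1, and none that passed changed direction. The cause of these changes was not tested. Counts of members called moved as follows. With libraries scaled by their totals, the steady-state count was 1, against 3, for stage III over II, and 3, against 5, for stage IV over I. DESeq2 gave 1 for steady-state stage III over II, 4, against 2, for IL-33 stage IV over III, and 2, against 1, for the difference of the last steps. With the 2 groups fitted alone, the counts were 1 for steady-state stage III over II, 1, against 3, for stage IV over III, 3 for stage IV over I, and 7 for IL-33 stage IV over III. With the replicate block, they were 5 for IL-33 stage IV over III, 2 for the difference of the last steps, where Jak2 passed (adjusted p = 0.0235), and 4, against 2, for the joint test, where Socs2 and Pim1 did. Same-numbered libraries did not meet the bar for pairing in the IL-33 comparison (r of 0.046 to 0.103), although all 6 libraries there were closest to their own number. The other tests combine comparisons that met the bar with ones that did not. Without the 4 steady-state libraries numbered 3, they were 1, against 0, for steady-state stage II over I, 6 for IL-33 stage IV over III, 2, against 0, for the difference of the steps to stage III, and 5 for the joint test. Leaving out each library in turn gave 0 to 1, 1 to 3, 2 to 3 and 2 to 5 for the steady-state steps and stage IV over I; 2 to 4 and 5 to 8 for IL-33 stage IV over III and over I; 1 to 4, 3 to 4, 2 to 4 and 4 to 5 for IL-33 over steady state at stages I to IV, and 5 to 6 for the average; 0 to 1 and 1 to 2 for the differences of the steps to stages III and IV; and 2 to 5 for the joint test. Where that left 2 libraries in a group, they were taken to vary like the other groups.

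The backgrounds moved too. The number of all genes called for steady-state stage II over I was 620, against 1190 by DESeq2, 1069 with the block, 21 with the 2 groups alone and 289 to 731 with a library left out. For IL-33 over steady state at stage I it was 518, against 1082 by DESeq2, 332 with the 2 groups alone and 109 to 880 with a library left out, at stage II 1023, against 1558 by DESeq2 and 381 to 1181, and at stage IV 1550, against 802 (without IL-33 stage IV library 2) to 1731. For steady-state stage IV over III it was 1176, against 1851 by DESeq2, 245 with the 2 groups alone and 719 to 1354 with a library left out, and for stage III over II 4405, against 1965 with the 2 groups alone. For the difference of the steps to stage III it was 842, against 1391 with the block, 1373 by DESeq2, 1664 without the libraries numbered 3, 471 to 540 without 1 of the IL-33 stage II libraries, fewer than 471 without IL-33 stage III library 2, and up to 1177 with another library left out. For the difference of the steps to stage II it was 0, against 115 by DESeq2 and up to 12 with a library left out. For IL-33 stage III over II it was 11, against 678 with the 2 groups alone and 0 to 44 with a library left out. For IL-33 stage IV over III it was 3710, against 4766 without the libraries numbered 3 and 2637 to 3913 with a library left out. For the joint test it was 2264, against 2860 without the libraries numbered 3. Scaling by totals moved the median of all genes by up to -0.39 (the difference of the last steps), and it gave 3048 higher and 1220 lower calls for IL-33 over steady state at stage III, against 2357 and 1899 with TMM, and 1349 and 3053 for steady-state stage III over II, against 2188 and 2217 with TMM. Of the lists, receptor chains had 3 called in place of 5 for steady-state stage IV over I with library totals or without stage IV library 1 or stage I library 2 or 3, and the negative regulators 8 in place of 5 there with the block and 3 in place of 5 for the average without a filter or without any 1 of 5 IL-33 libraries. Depth limits Socs2 in steady state, at 0 to 29 counts a library, and Socs3, at 0 to 267.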
